A study of Mus musculus with 12 samples.

Results

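NIH-3T3 and MLg, both mouse fibroblast lines, were compared as they were without added ligand. The comparison took the 6 vehicle libraries, 3 of NIH-3T3 and 3 of MLg, of 12 libraries in the series. In the other 6 libraries the same lines had received SHHN, the amino-terminal fragment of Sonic hedgehog, at 1 µg per ml. NIH-3T3 is a line from the embryo of NIH/Swiss mice, and MLg comes from the lung of newborn ddY mice. All cultures stood in medium with 0.5% serum for 48 h before RNA was taken. Until then MLg had been grown in fetal bovine serum and NIH-3T3 in bovine calf serum, so serum, strain, tissue, age and line cannot be told apart. Each origin is represented by a single line. Whether replicates came from separate cultures is not stated in the labels, and p-values therefore measure only the spread between these libraries, which may be technical.

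Fibroblasts keep a record of where in the body they arose. Hox and other patterning transcription factors, set in the embryo, stay on or off in cultured cells for many divisions, and the matrix proteins, growth factors and chemokines a fibroblast secretes vary with its site of origin. Established lines also carry changes acquired in culture in the control of the cell cycle. The comparison describes how far the 2 lines differ in such genes when neither has been stimulated.

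Levels are FPKM, which divides the fragments of a gene by its transcript length and by the depth of the library, as deposited by the authors. A gene entered the test when 3 or more of the 6 libraries reached 0.5 FPKM, as 11991 of 24346 genes in the table did. The difference was taken as NIH-3T3 minus MLg on the log2(FPKM + 0.5) scale, which understates the change of genes with low values, and a gene was called at an adjusted p under 0.05 from limma. Totals over all genes ran from 502807 to 659862 FPKM and genes above 0 from 13401 to 14394 a library. Depth cannot be read from these values and is unknown, so no detection limit can be given for a gene listed at 0. Over all tested genes, Spearman correlations of libraries ranged from 0.971 to 0.988 within a line and from 0.857 to 0.871 between lines, where genes are not independent of each other. The first principal component held 85.9% of the variance and separated the lines. The second held 7.42% and set NIH-3T3 replicate 2 apart from the other NIH-3T3 libraries. That library also had the fewest genes above 0 and the largest share of FPKM in its 20 most abundant genes, 17.2%, where the other 5 libraries had 12.3% to 15.99%.

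Both lines expressed fibroblast genes. Of 14 fibroblast identity genes, 13 were tested, 6 were higher in NIH-3T3 and 2 in MLg (46.2% and 15.4%, against 20.9% and 21.7% of all tested genes). With gene length and GC content corrected these became 10 and 2. That correction also raised the counts over all tested genes, from 2501 to 3273 in NIH-3T3 and from 2603 to 3349 in MLg. The collagen chain Col1a1 had 3421 ± 711 against 2582 ± 419 FPKM in NIH-3T3 and MLg (SD, n = 3 here and throughout), and was not called. Col1a2, the other chain of type I collagen, had 3133 ± 137 against 2652 ± 180.2 FPKM and was not called either. The surface protein Thy1 differed most in this list. It stood at 115, 125 and 123 FPKM in the NIH-3T3 libraries and at 0.106, 0.0731 and 0.03098 FPKM in the MLg libraries, so this widely used fibroblast marker was near 0 in MLg. Summed levels of the fibroblast list ranged from 18449.9 to 19806 FPKM in NIH-3T3 and from 11755 to 13517 FPKM in MLg.

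Most markers of other cell types were low or listed at 0. Of 16 epithelial markers 1 was tested, and the list summed to at most 1.41 FPKM in any of the 6 libraries, with Epcam and Sftpb among 7 genes listed at 0 throughout. Of 14 immune markers 3 were tested, and the list summed to at most 3.27 FPKM in NIH-3T3 and 9.04 FPKM in MLg. The mesothelial list differed more. It summed to 60.4 to 85.4 FPKM in MLg and to 1.51 to 2.58 FPKM in NIH-3T3. Nearly all of this was mesothelin, Msln, at 56.97, 80.6 and 71.2 FPKM in MLg against 1.61, 1.22 and 0.892 FPKM in NIH-3T3. Nkain4 (0.160 ± 0.139 against 2.76 ± 0.276 FPKM, NIH-3T3 first) and Lrrn4 (0.208 ± 0.020 against 0.893 ± 0.383 FPKM) were called higher in MLg too. With Msln, this made 3 of 3 tested mesothelial markers higher in MLg, 2 of them at least 4-fold. Over all tested genes 21.7% were higher in MLg and 3.64% at least 4-fold. Of the 3 markers, 2 passed the filter through MLg alone, which favours a call in that direction, and 6 others of the list were below the filter. Wt1, the defining mesothelial transcription factor, reached only 0.268 FPKM in MLg and stayed below the filter, as did Upk3b. Pericyte genes were divided, with the receptor Notch3 at 0.404 ± 0.129 against 37.8 ± 1.31 FPKM and the peptidase Anpep at 40.8 ± 2.02 against 0.447 ± 0.139 FPKM, NIH-3T3 first, while the pericyte markers Kcnj8, Abcc9 and Higd1b were listed at 0 in all 6 libraries. Of 5 tested neural and Schwann markers, 2 were higher in NIH-3T3, Snap25 (5.05 ± 1.02 against 0.268 ± 0.0431 FPKM) and Tubb3 (4.58 ± 0.736 against 0.938 ± 0.0672 FPKM), and 1 in MLg, Nes, an intermediate filament protein of neural and other progenitors (0.281 ± 0.0372 against 28.9 ± 1.62 FPKM). Sox2 and Olig2 were listed at 0. Of 12 endothelial markers 3 were tested, and the list summed to 9.37 to 10.3 FPKM in NIH-3T3 and 1.73 to 2.66 FPKM in MLg. Of the 3, the receptor Tek (6.86 ± 1.07 against 0.0547 ± 0.0463 FPKM) and Egfl7 (2.74 ± 1.22 against 0.0195 ± 0.0337 FPKM) were higher in NIH-3T3 and Plvap (0.111 ± 0.0827 against 1.44 ± 0.3704 FPKM) in MLg, while Cldn5 and Emcn were listed at 0. In a bulk library, fewer cells of a kind and less RNA per cell cannot be told apart. The part of these genes in the results below was not tested.

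The lines differed in a large part of the transcriptome. Of 11991 tested genes, 5104 were called (42.6%), of which 2501 were higher in NIH-3T3 (20.9%) and 2603 higher in MLg (21.7%). The median difference was −0.0038 and the median absolute difference 0.41 on the log2 scale. At least 2-fold differences were called for 1072 genes in NIH-3T3 (8.94%) and 1287 in MLg (10.7%), at least 4-fold for 341 and 436, and at least 64-fold for 19 and 14. The libraries of the lines did not overlap for 6286 genes (52.4%). Genes that were on in one line and off in the other made up a small group. There were 40 genes with at least 10 FPKM in every NIH-3T3 library and under 0.5 FPKM in every MLg library, and 39 the other way round. Some genes passed the filter through a single line, 432 through NIH-3T3 and 588 through MLg, which favours a call. Of these, 356 (82.4%) and 533 (90.6%) were called. Genes that passed through a single line are part of the counts given for gene groups. Among the 10971 genes that passed in both lines, 38.4% were called. The counts of gene groups above and below stand against 20.9% higher in NIH-3T3 and 21.7% higher in MLg over all tested genes, and a group with shares near these is not set apart by its counts.

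**Figure D1:**
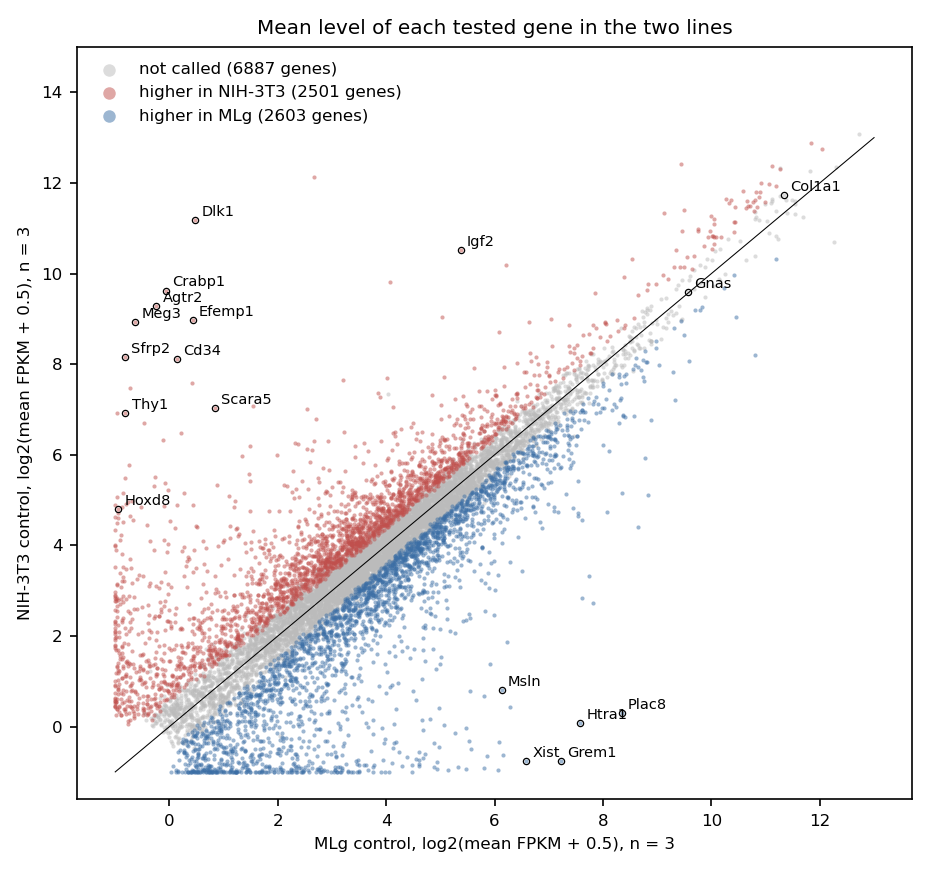
Mean level of each of the 11991 tested genes in MLg control (x axis) and NIH-3T3 control (y axis), as log2(mean FPKM + 0.5) over 3 libraries. Each dot is a gene, coloured by its call, and the line marks equal levels. Most genes lie near the line, while Dlk1, Crabp1 and Meg3 at the upper left and Grem1, Plac8 and Htra1 at the lower right were high in one line and near 0 in the other.

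Dlk1, a membrane protein with EGF repeats that is related to Notch ligands and restrains fat cell differentiation, had the largest difference of all tested genes. Its levels were 2848, 2226 and 1879 FPKM in NIH-3T3 and 0.983, 0.959 and 0.727 FPKM in MLg. The NIH-3T3 libraries stood far above those of MLg, by a log2 difference of 10.69 (SE 0.17). Grem1, a secreted antagonist of bone morphogenetic proteins, marked the opposite line. It had 0.0875, 0.04502 and 0.135 FPKM in NIH-3T3 and 205, 122 and 122 FPKM in MLg. All 3 MLg libraries were high and all NIH-3T3 libraries near 0, a difference of −7.95 (SE 0.21), and the gene passed the filter through MLg alone. These were the marker genes of the comparison and had been chosen with results of these libraries known, so no p-value is given for them.

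The promoters of the genes at the ends of this scale are shown because these genes were high in one line and near 0 in the other. The stretches are from RefSeq on GRCm38.p6 and run from 250 bases before to 50 bases after the start site. They are printed 5′ to 3′ on the strand of the gene, with capitals for motif matches on either strand. The motifs were the TATA box core TATAAA, the Sp1 site core GGGCGG and the CCAAT box. Dlk1 lies at chr12:109452573-109452872 on the plus strand, Meg3 at chr12:109540746-109541045 on the plus strand (the first of 2 listed starts) and Grem1 at chr2:113758599-113758898 on the minus strand.
Dlk1: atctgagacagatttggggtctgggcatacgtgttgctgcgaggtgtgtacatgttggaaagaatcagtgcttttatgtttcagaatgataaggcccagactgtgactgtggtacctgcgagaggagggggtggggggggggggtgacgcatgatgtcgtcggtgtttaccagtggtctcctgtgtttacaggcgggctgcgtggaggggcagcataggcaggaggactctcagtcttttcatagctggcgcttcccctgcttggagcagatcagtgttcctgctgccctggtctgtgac
Meg3: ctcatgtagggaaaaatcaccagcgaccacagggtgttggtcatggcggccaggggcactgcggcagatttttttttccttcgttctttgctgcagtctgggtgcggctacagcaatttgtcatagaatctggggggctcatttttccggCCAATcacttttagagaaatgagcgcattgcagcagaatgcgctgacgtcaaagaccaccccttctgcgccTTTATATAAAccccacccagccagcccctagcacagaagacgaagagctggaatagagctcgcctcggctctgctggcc
Grem1: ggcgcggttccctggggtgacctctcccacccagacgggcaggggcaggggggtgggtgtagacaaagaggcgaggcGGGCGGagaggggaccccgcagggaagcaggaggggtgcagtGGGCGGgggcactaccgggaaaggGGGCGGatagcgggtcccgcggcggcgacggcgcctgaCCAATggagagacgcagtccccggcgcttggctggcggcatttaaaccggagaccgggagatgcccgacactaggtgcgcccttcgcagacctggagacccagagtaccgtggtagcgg
The Dlk1 stretch held none of these motifs. The Meg3 stretch held 2 overlapping TATAAA matches, 1 on each strand, and 1 CCAAT, and the Grem1 stretch 3 GGGCGG and 1 CCAAT. Over all 27025 promoters in the table, 14.2% held the TATA box core, 35.9% the Sp1 core and 37.9% the CCAAT box. Promoter sequences were matched for 79.8% of the tested genes, which is under 80%, so a comparison of promoter content between genes higher in either line is void and was not made.

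The other genes highest in NIH-3T3 encode binding proteins, receptors and secreted factors. Crabp1, which binds retinoic acid in the cytosol, had 690.4, 986 and 691 FPKM in NIH-3T3 and 0.232, 0.707 and 0.443 FPKM in MLg. Its lowest NIH-3T3 library was far above the highest MLg library (log2 difference 9.69, SE 0.21). The angiotensin II receptor gene Agtr2 reached 703, 431 and 728 FPKM and 0.326, 0.432 and 0.281 FPKM, in the same order. Sfrp2, a secreted modulator of Wnt ligands, had 316, 298 and 243 FPKM in NIH-3T3 and at most 0.11 FPKM in MLg (8.98, SE 0.15). Surface markers were in this group too. Cd34 had 277 ± 18.9 against 0.603 ± 0.3905 FPKM and Thy1 121 ± 5.28 against 0.0701 ± 0.0377 FPKM in NIH-3T3 and MLg. The extracellular matrix proteins Efemp1 (500.2 ± 21.5 against 0.846 ± 0.256 FPKM) and Emilin2 (79.2 ± 8.45 against 0.426 ± 0.159 FPKM), the ferritin receptor Scara5 (129.6 ± 3.14 against 1.29 ± 0.07201 FPKM) and the lipoprotein lipase Lpl (88.4 ± 15.2 against 0.656 ± 0.2098 FPKM) behaved alike, as did Emb, a chaperone of monocarboxylate transporters, and the surface glycoprotein gene Cd24a. Exons of Cd34 overlap those of Gm16897 on the opposite strand, and reads of the pair may not have been told apart.

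Among the genes highest in MLg, Plac8, a small cysteine-rich protein, had 0.705, 0.362 and 1.14 FPKM in NIH-3T3 and 275, 370.2 and 328 FPKM in MLg. The ranges of the lines lay far apart (log2 difference −8.08, SE 0.23, adjusted p = 2.14e-08). Htra1, a secreted serine protease, followed with 0.338, 0.729 and 0.586 FPKM against 210.2, 198 and 162 FPKM. Il1rn, the natural blocker of the interleukin 1 receptor, was at or near 0 in NIH-3T3 and stood at 62.5, 64.2 and 73.5 FPKM in MLg. The protease inhibitors Serping1, which restrains the first component of complement, and Tfpi, which restrains tissue factor, were also high in MLg, at 0.139 ± 0.0366 against 57.3 ± 7.07 and 0.845 ± 0.428 against 77.2 ± 8.23 FPKM, NIH-3T3 first. Loxl2, a collagen crosslinking enzyme, had 0.03799 ± 0.0136 against 39.5 ± 4.07 FPKM, the activin subunit Inhbb 0.0184 ± 0.00578 against 34.8 ± 5.34 FPKM and the neuropeptide Y receptor Npy1r 0.0232 ± 0.0403 against 43.6 ± 4.62 FPKM. Fibin, Npepl1 and the phosphodiesterase Pde1a differed by −6.38, −6.81 and −5.86 on the log2 scale.

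**Figure D2:**
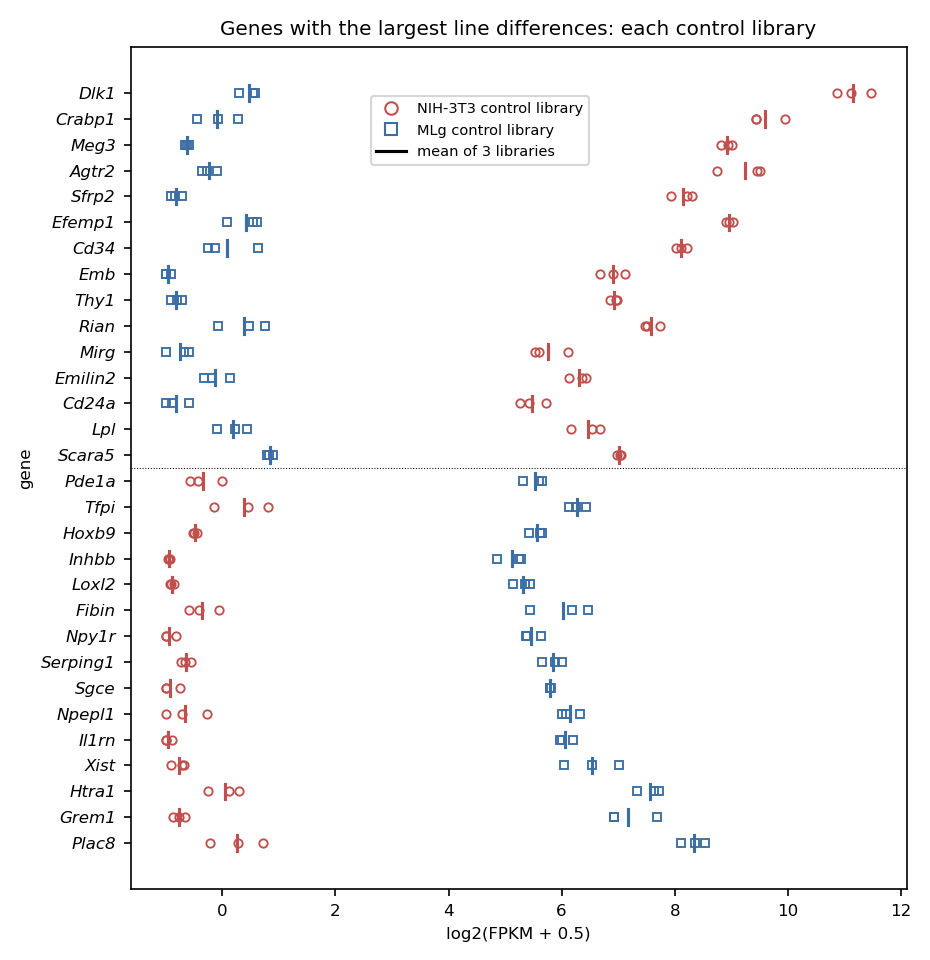
The 15 genes highest in NIH-3T3 (above the dotted line) and the 15 highest in MLg (below it) among called genes with at least 10 FPKM in the higher line, as log2(FPKM + 0.5) on the x axis. Circles are NIH-3T3 control libraries, squares MLg control libraries, and short vertical bars the means of 3. In each gene the libraries of the lines lie several log2 units apart and those of a line close together.

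Hox genes gave each line a distinct positional profile. These homeobox factors sit in 4 clusters, A to D, and record the position of a cell along the body axis. Of 39 Hox genes, 29 passed the filter, 8 were higher in NIH-3T3, 19 were higher in MLg and 2 were not called, against 20.9% and 21.7% over all tested genes. Of these 29, 4 passed through NIH-3T3 alone and 15 through MLg alone. The direction followed the cluster for B, C and D. All 8 tested HoxB genes, Hoxb2 to Hoxb9, were higher in MLg. Hoxb9 had 0.196, 0.235 and 0.207 FPKM in NIH-3T3 and 49.8, 48.3 and 42.2 FPKM in MLg, and Hoxb8 0.0804, 0.161 and 0.153 and 20.4, 23.2 and 17.6 FPKM. Hoxb2 and Hoxb7 were listed at 0 in every NIH-3T3 library, with 8.79, 9.97 and 6.39 and 15.3, 17.5 and 10.6 FPKM in MLg.

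The HoxC genes were likewise higher in MLg, 7 of 7 tested. Hoxc8 had 0.111, 0.138 and 0.21999 FPKM in NIH-3T3 and 24.6, 24.8 and 27.8 FPKM in MLg, and Hoxc9 0.0239, 0.106 and 0.03504 and 11.5, 14.6 and 9.65 FPKM. Hoxc4 and Hoxc5 were detected in both lines and differed by only −1.17 and −0.72 on the log2 scale. The Hoxc5 call was lost with quantile normalization (adjusted p = 0.0513) and without NIH-3T3 control replicate 1 (0.0501). The HoxD cluster went the other way. Hoxd8 stood at 27.1, 28.2 and 26.95 FPKM in NIH-3T3 and at 0, 0 and 0.0604 FPKM in MLg, Hoxd9 at 10.4, 16.5 and 13.5 and 0, 0.114 and 0.0207 FPKM. Hoxd3 and Hoxd4 had 2.53, 3.26 and 3.93 and 7.26, 7.02 and 6.73 FPKM in NIH-3T3 and were listed at 0 in all MLg libraries.

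HoxA genes were mixed. Hoxa5 and Hoxa7, at 14.2 ± 1.66 against 10.7 ± 1.28 and 13.96 ± 3.23 against 16.6 ± 1.36 FPKM, were not called, although Hoxa5 was called higher in NIH-3T3 with all 12 libraries in the fit (adjusted p = 0.0416) and with length and GC content corrected (0.0137). Hoxa2, Hoxa3 and Hoxa6 were higher in NIH-3T3, with log2 differences of 0.902, 1.49 and 2.18, and Hoxa9, Hoxa10 and Hoxa13 higher in MLg, with log2 differences of −1.14, −2.26 and −2.23. Hoxa13, a gene of the far end of its cluster, had 1.77, 1.83 and 1.92 FPKM in MLg and 0 in NIH-3T3. Hoxa4 (−0.897, adjusted p = 0.0374) was close to the threshold, and lost its call without NIH-3T3 control replicate 1 (0.103) and without either of MLg control replicates 1 and 2 (0.133 and 0.130). The call was also lost with quantile normalization (0.125) and with no filter on low values (0.0682). Exons of Hoxd3 and Hoxd4, and of Hoxc5 and Hoxc10, overlap on the same strand, and exons of Hoxa3, Hoxa7, Hoxb5, Hoxd3 and Hoxd4 overlap genes on the opposite strand, so single values of these genes are uncertain. The promoters of Hoxb8 (chr11:96281655-96281954) and Hoxd8 (chr2:74704365-74704664), both on the plus strand, are shown because these genes of the same number stood high in opposite lines.
Hoxb8: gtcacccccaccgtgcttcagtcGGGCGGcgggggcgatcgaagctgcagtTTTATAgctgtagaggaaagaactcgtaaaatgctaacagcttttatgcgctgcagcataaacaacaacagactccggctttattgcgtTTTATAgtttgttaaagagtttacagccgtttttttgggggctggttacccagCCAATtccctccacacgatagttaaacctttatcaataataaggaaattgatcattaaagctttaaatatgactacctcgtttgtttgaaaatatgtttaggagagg
Hoxd8: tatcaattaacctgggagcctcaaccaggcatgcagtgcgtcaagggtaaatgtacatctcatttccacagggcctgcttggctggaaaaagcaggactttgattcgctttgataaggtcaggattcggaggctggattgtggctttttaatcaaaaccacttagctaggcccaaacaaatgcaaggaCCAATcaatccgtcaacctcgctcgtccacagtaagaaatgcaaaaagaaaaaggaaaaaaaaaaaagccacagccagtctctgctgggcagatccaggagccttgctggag
The Hoxb8 stretch held 2 matches of TATAAA, 1 of GGGCGG and 1 of CCAAT. The Hoxd8 stretch held 1 CCAAT alone.

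**Figure D3:**
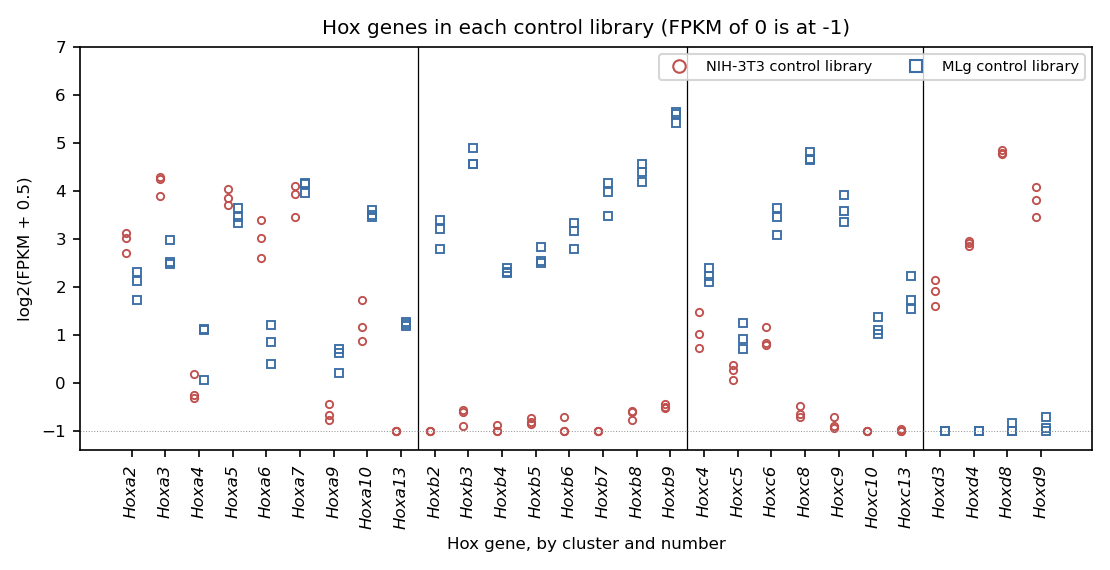
Level of the tested Hox genes described here in each control library, as log2(FPKM + 0.5) on the y axis, with genes in order of cluster and number on the x axis. Circles are NIH-3T3 and squares MLg, and an FPKM of 0 lies at the dotted line. HoxB and HoxC genes are high in MLg, the 4 tested HoxD genes in NIH-3T3, and HoxA genes are mixed.

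Transcription factors of lung mesenchyme were more often higher in MLg. Of 25 listed genes 22 were tested, 13 were higher in MLg and 6 in NIH-3T3 (59.1% and 27.3%, against 21.7% and 20.9% of all tested genes), with a median log2 difference of −0.70 against −0.0038 over all genes. Of these 22, 2 passed the filter in MLg alone. Tbx5, a T-box factor of the lung bud, heart and forelimb, was listed at 0 in NIH-3T3 and had 7.85, 8.55 and 6.68 FPKM in MLg. Foxf1, a forkhead factor of lung and gut mesenchyme, had 4.54, 3.69 and 4.06 FPKM in NIH-3T3 and 25.6, 28.2 and 21.8 FPKM in MLg. Tbx3 and Tbx2 were higher in MLg too, with log2 differences of −2.73 and −2.42. The lung T-box factor Tbx4 went the other way, with 5.43 ± 0.787 against 1.5002 ± 0.0891 FPKM in NIH-3T3 and MLg. Osr1, a zinc finger factor of early mesoderm, had 354, 486 and 422 FPKM in NIH-3T3 and 57.1, 77.6 and 67.9 FPKM in MLg. Klf4 was higher in NIH-3T3 as well (73.01 ± 5.64 against 10.2 ± 4.22 FPKM). Tcf21, Nkx2-3 and Gata5 were listed at 0 in all 6 libraries.

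Other patterning factors divided between the lines. Of 44 tested, of which 6 passed the filter in each line alone, 21 were higher in NIH-3T3 and 14 in MLg (47.7% and 31.8%). The engrailed gene En1 (14.3 ± 3.35 against 0.31996 ± 0.119 FPKM), Irx1 (22.4 ± 8.51 against 0.0511 ± 0.0528 FPKM), Pax9 (12.05 ± 3.16 against 0.7503 ± 0.0773 FPKM) and Lhx8 (7.96 ± 0.475 against 0.0358 ± 0.0374 FPKM) were higher in NIH-3T3, which comes first in each pair of values. MLg had the paired box factor Pax3 at 0.00667 ± 0.0115 against 9.36 ± 0.7698 FPKM and the homeobox factor Msx1 at 0 against 10.5 ± 1.44 FPKM, NIH-3T3 first. Foxd1 (0.0246 ± 0.0213 against 29.9 ± 9.18 FPKM) and Scx, a factor of tendon progenitors (0.424 ± 0.121 against 7.16 ± 2.45 FPKM), were higher in MLg.

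Imprinted genes, expressed from a single parental copy, differed widely. Of 43 genes of the list in the table, 31 were tested, and 15 were higher in NIH-3T3 and 7 in MLg (48.4% and 22.6%, against 20.9% and 21.7% of all tested genes, so that the share higher in MLg was near the background). At least 4-fold differences were called for 10 and 3 of these (32.3% and 9.68%, against 2.84% and 3.64% of all tested genes). Of the 31, 4 passed the filter in each line alone. Genes of the Dlk1-Meg3 domain were high in NIH-3T3. Besides Dlk1, the noncoding RNA Meg3 had 451, 513 and 489.9 FPKM in NIH-3T3 and 0.164, 0.129 and 0.147 FPKM in MLg. The other noncoding RNAs of the domain, Rian (191 ± 18.8 against 0.8401 ± 0.369 FPKM) and Mirg (54.2 ± 12.7 against 0.0971 ± 0.0868 FPKM), and the retrotransposon-derived gene Rtl1 (2.12 ± 0.508 against 0.331 ± 0.1503 FPKM) were higher there too. Igf2, a growth factor of fetal tissues, had 1476, 1309.8 and 1594 FPKM in NIH-3T3 and 54.4, 34.2 and 34.01 FPKM in MLg, and the neighbouring noncoding RNA H19 1105, 1220.5 and 1157 and 65.7, 70.5 and 82.98 FPKM. Both were detected in MLg, but at a much lower level in every library. Among the other imprinted genes, Mest (log2 difference 4.47), Plagl1 (3.68), Grb10 (1.905) and Impact (3.92) were higher in NIH-3T3.

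The imprinted genes higher in MLg included a neighbouring pair. Sgce, a sarcoglycan, had 0, 0 and 0.0927 FPKM in NIH-3T3 and 55.3, 55.3 and 55.1 FPKM in MLg. Peg10, next to it in the genome, was listed at 0 in NIH-3T3 and had 1.95, 1.44 and 1.75 FPKM in MLg. Cdkn1c, an imprinted inhibitor of cyclin-dependent kinases, had 0.06105 ± 0.04401 against 10.5 ± 2.16 FPKM. Peg3 (16.4 ± 6.02 against 28.8 ± 6.15 FPKM) and Snrpn (1.43 ± 0.582 against 3.92 ± 0.214 FPKM) were also higher in MLg, but Peg3 lost its call without MLg control replicate 1 (adjusted p = 0.0944) or 3 (0.121) and with no filter on low values (0.076). In each pair of values NIH-3T3 comes first.

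Sex-linked genes separated the lines. Xist, the RNA that coats the inactive X chromosome of female cells, had 0.1096, 0.0339 and 0.122 FPKM in NIH-3T3 and 92.1, 65.5 and 129 FPKM in MLg (log2 difference −7.301, SE 0.23). The Y-linked genes Eif2s3y and Ddx3y had 37.6, 19.4 and 29.8 and 19.2, 8.03 and 16.3 FPKM in NIH-3T3, and 0 and at most 0.02 FPKM in MLg. Uty and Kdm5d, also Y-linked, were called higher in NIH-3T3 (log2 differences 3.02 and 2.996). The X-linked genes Kdm6a, Eif2s3x and Kdm5c, known to escape X inactivation, were higher in MLg, with log2 differences of −0.97, −0.81 and −0.601. Kdm5c lost its call without NIH-3T3 control replicate 2 or 3, without any 1 of the MLg libraries and with no filter on low values (adjusted p of 0.0581 to 0.113). Exons of Xist overlap those of Tsix on the opposite strand. Over the 398 tested genes of the X chromosome, 35.9% were higher in MLg and 11.1% in NIH-3T3, against 21.7% and 20.9% of all tested genes. The X was not alone in this, as chromosome 9 had similar shares, 33.2% and 9.77%.

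The differences were not spread evenly over the chromosomes. Positions were taken from GENCODE M21 on GRCm38 and were found for 99.4% of the tested genes. On chromosome 16, 50.7% of 367 tested genes were higher in NIH-3T3, on chromosome 4 45.3% of 735 and on chromosome 12 43.4% of 399, against 20.9% over all chromosomes. Their median log2 differences were 0.50, 0.39 and 0.43. These 3 chromosomes held 12.5% of the tested genes and 27.7% of the genes higher in NIH-3T3, but 7.76% of those higher in MLg. The share higher in MLg was 33.2% on chromosome 9, 30.2% on chromosome 13, 28.5% on chromosome 11 and 28.0% on chromosome 18, against 21.7% overall. The libraries with SHHN, which share none with this comparison, gave medians of 0.36, 0.43 and 0.38 for chromosomes 16, 4 and 12.

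Chromosome 4 was made of stretches with opposite directions. Blocks of about 40 neighbouring tested genes were formed after the chromosome medians had been seen, and are given as a description. In the first 3 blocks (chr4:3549041-43578873), medians ran from −0.77 to −0.65 and 78 of 123 genes were higher in MLg. In blocks 6 to 12 (chr4:62383654-130826319), they ran from 0.81 to 1.24 and 224 of 287 genes were higher in NIH-3T3. From block 13 to the end they lay between 0.06 and 0.38. On chromosome 16 the first 5 blocks (chr16:3744093-33949338) had medians of 0.52 to 0.78 and 130 of 205 genes higher in NIH-3T3. The last 2 blocks of chromosome 8 stood at 0.63 and 0.65, where the other 14 ran from −0.23 to 0.22. Of 287 blocks in the genome without the Y chromosome, 17 had a median of at least 0.5, and 15 of these lay on chromosomes 4, 12 and 16. Mtap, a methionine salvage enzyme inside the higher stretch of chromosome 4 (chr4:89137122-89181081), had 101, 94.5 and 117 FPKM in NIH-3T3 and 19.6, 20.6 and 25.7 FPKM in MLg. Its neighbours Cdkn2a and Cdkn2b, which encode cell cycle inhibitors, were listed at 0 in all 6 libraries.

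**Figure D4:**
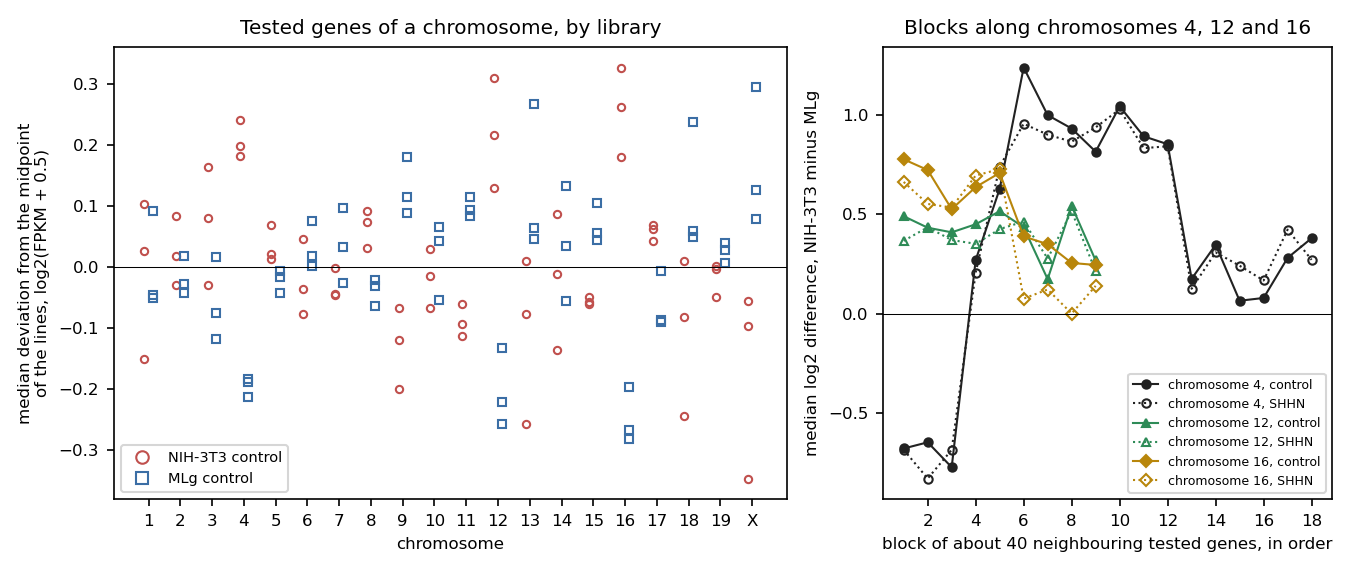
Left, the median over the tested genes of a chromosome of each library's deviation from the midpoint of the lines, in log2(FPKM + 0.5), with circles for NIH-3T3 and squares for MLg. Right, median log2 difference (NIH-3T3 minus MLg) of successive blocks of about 40 tested genes along chromosomes 4, 12 and 16, filled for control and open for SHHN libraries. The 3 libraries of each line lie on opposite sides of 0 on chromosomes 4, 12 and 16, and also on 5, 8, 9, 11, 15, 17 and X. Chromosome 4 changes sign after its block 3.

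Over windows of 10 neighbouring tested genes, the medians of most windows lay between −0.53 and 0.65 (5th and 95th percentile of 11734 windows). The highest was the Dlk1-Meg3 domain with its neighbours (chr12:108825873-109749460, median 3.34, 8 of 10 genes higher in NIH-3T3). Begain, at the edge of this window, had 16.9 ± 3.38 against 0.0307 ± 0.0274 FPKM, and Wdr25 and Slc25a47 were not called, although Slc25a47 was with length and GC content corrected (adjusted p = 0.022). The lowest was the HoxB cluster (chr11:96068852-96354012, median −4.50, 9 of 10 higher in MLg). Clustered protocadherins, neuronal adhesion molecules whose copies are chosen cell by cell in neurons, gave both a high and a low window on chromosome 18. In the high window 8 Pcdha and Pcdhb genes were higher in NIH-3T3, among them Pcdhb6 (6.68 ± 0.665 against 0.0104 ± 0.01799 FPKM) and Pcdhb7 (10.2 ± 0.166 against 0.448 ± 0.04001 FPKM). In the adjoining Pcdhg group, 7 of 10 were higher in MLg, among them Pcdhgb6 (0.383 ± 0.166 against 9.31 ± 1.16 FPKM), while Pcdhgb2 (28.7 ± 2.89 against 7.32 ± 1.12 FPKM) and Pcdhgb4 (2.53 ± 0.802 against 0.209 ± 0.0925 FPKM) were higher in NIH-3T3. Genes of the Pcdha and Pcdhg groups share their last exons, so their single values are uncertain. A window of Schlafen genes on chromosome 11 was higher in MLg, with Slfn2 listed at 0 in NIH-3T3 and at 4.59 ± 0.911 FPKM in MLg. A window on chromosome 4 (median 1.90) held Trabd2b, an inhibitor of Wnt ligands (31.2 ± 2.51 against 0.118 ± 0.0571 FPKM), and Pdzk1ip1 (23.1 ± 5.41 against 0.125 ± 0.0465 FPKM).

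Called matrix genes lay on both sides. Of 19 tested collagen chains, 5 were higher in NIH-3T3 and 7 in MLg (26.3% and 36.8%, against 20.9% and 21.7% of all tested genes), and 10 and 7 with length and GC content corrected. The share higher in NIH-3T3 was near that of all genes. Col5a3 had 32.4 ± 2.58 against 6.17 ± 0.676 FPKM and Col27a1 7.34 ± 0.487 against 2.18 ± 0.214 FPKM, NIH-3T3 first, whereas Col11a1 (4.62 ± 0.499 against 43.7 ± 3.62 FPKM) and Col18a1 (4.75 ± 0.779 against 46.1 ± 3.66 FPKM) were higher in MLg. Of 19 tested basement membrane genes 5 were higher in NIH-3T3 and 9 in MLg. The laminin chain Lama5 had 0.0131, 0.0576 and 0.0451 FPKM in NIH-3T3 and 32.9, 27.2 and 26.4 FPKM in MLg. Col15a1 went the other way (6.34 ± 0.502 against 0.00276 ± 0.00478 FPKM), as did Lama4 (158 ± 13.1 against 63.8 ± 9.45 FPKM). Among elastic fibre proteins, 7 of 21 tested were higher in NIH-3T3 and 8 in MLg. Elastin itself, Eln, had 34.3, 28.2 and 28.6 FPKM in NIH-3T3 and 0.0678, 0.103 and 0.101 FPKM in MLg. Fibrillin 1, Fbn1, was higher in MLg (56.4 ± 11.1 against 173 ± 30.2 FPKM).

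Matricellular proteins, which signal from the matrix to cells, were split 10 to 10 of 26 tested. Periostin, Postn, had 965, 810.5 and 907 FPKM in NIH-3T3 and 15.2, 14.8 and 18.95 FPKM in MLg, a wide gap with no overlap (5.74, SE 0.14). The CCN proteins Wisp1 (9.99 ± 2.65 against 58.5 ± 9.21 FPKM), Cyr61 (12.1 ± 0.949 against 46.4 ± 8.76 FPKM), Nov (0.164 ± 0.00933 against 3.96 ± 0.687 FPKM) and Ctgf (0.738 ± 0.147 against 7.17 ± 2.65 FPKM) were all higher in MLg. Of 13 tested small leucine-rich proteoglycans, 5 were higher in NIH-3T3 and 3 in MLg, and 3 and 2 without MLg control replicate 1. Decorin, Dcn, had 1284 ± 71.1 against 371 ± 47.1 FPKM and asporin, Aspn, 128 ± 34.999 against 5.297 ± 1.61 FPKM. Osteoglycin, Ogn, was higher in MLg (35.4 ± 8.43 against 327 ± 135 FPKM), and so were keratocan, Kera (log2 difference −2.604), and Omd (−1.304), the last of which lost its call without MLg control replicate 1 (adjusted p = 0.0503).

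Integrins, the receptors that bind matrix, numbered 16 tested, with 5 higher in NIH-3T3 and 7 in MLg. The laminin-binding chain Itga7 had 0.535 ± 0.0353 against 17.3 ± 2.27 FPKM and the collagen-binding chains Itga11 and Itga2 4.73 ± 0.7795 against 18.99 ± 4.09 and 0.0436 ± 0.0234 against 2.96 ± 0.857 FPKM, all higher in MLg. Itga9 was higher in NIH-3T3 (3.75 ± 0.274 against 0.291 ± 0.0954 FPKM). Of 31 tested proteases and inhibitors, 10 were higher in NIH-3T3 and 12 in MLg. The stromelysin Mmp3 was near 0 in NIH-3T3 and had 10.5, 4.67 and 4.97 FPKM in MLg, with a wide spread between replicates. The protease inhibitor Serpine2 was higher in NIH-3T3 (44.5 ± 2.05 against 6.19 ± 1.69 FPKM). Of 13 tested cadherins and protocadherins 4 were higher in NIH-3T3 and 7 in MLg. N-cadherin, Cdh2, had 4.57, 3.65 and 5.93 FPKM in NIH-3T3 and 29.5, 34.9 and 38.5 FPKM in MLg, while the mesenchymal cadherin Cdh11 had 279, 219 and 287 and 72.1, 80.8 and 99.6 FPKM.

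Contractile genes were more often higher in MLg. Of 18 tested, 13 were higher in MLg and 1 in NIH-3T3, against 21.7% and 20.9% of all genes, with a median log2 difference of −0.97. Smooth muscle actin, Acta2, had 121, 91.6 and 99.8 FPKM in NIH-3T3 and 292, 349 and 304 FPKM in MLg. Myosin light chain kinase, Mylk (1.58 ± 0.159 against 24.8 ± 1.94 FPKM), the light chain Myl9 (27.95 ± 6.74 against 174 ± 28.4 FPKM) and the calponin Cnn2 (268 ± 24.7 against 766 ± 84.001 FPKM) followed, while smoothelin, Smtn, went against the list (65.4 ± 12.1 against 29.04 ± 2.42 FPKM). Myocd, the master regulator of smooth muscle genes, was listed at 0 throughout. Of 3 tested skeletal muscle genes, the troponin Tnnt3 was higher in NIH-3T3 (8.62 ± 1.98 against 3.48 ± 0.676 FPKM), and the actins Acta1 and Actc1 in MLg. Acta1 had 5.29, 0.566 and 0.526 FPKM and Actc1 6.19, 0.595 and 0.6796 FPKM in MLg, where replicate 1 stood far above the other 2. Both actin calls were lost without NIH-3T3 control replicate 3 (adjusted p = 0.075 and 0.0522). With no filter on low values the adjusted p was 0.0749 for Acta1 and 0.0534 for Actc1. The Acta1 call was also lost without NIH-3T3 control replicate 1 (0.0641), with a pseudocount of 1 (0.0564) and with quantile normalization (0.0702).

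Genes of the bone morphogenetic protein (BMP) pathway, which guides mesenchymal differentiation, differed in both directions. Of 25 tested genes of the list 9 were higher in NIH-3T3 and 7 in MLg. Beside Grem1, MLg expressed the ligand Bmp4 at 30.5, 33.3 and 26.9 FPKM, where NIH-3T3 had at most 0.13 FPKM. Bmp3 was listed at 0 in NIH-3T3 and had 2.28 ± 0.0912 FPKM in MLg. Of the inhibitors of differentiation that this pathway induces, Id4 was higher in NIH-3T3 (30.8 ± 11.5 against 1.81 ± 0.672 FPKM), as was Id2 (log2 difference 1.21). Smad6 and Smad7 of the same list were called higher in MLg. Among 17 tested genes of the TGF-beta and activin list, 8 were higher in MLg and 2 in NIH-3T3. Beside Inhbb, the activin subunit Inhba (3.83 ± 0.297 against 13.6 ± 2.32 FPKM) and the receptors Tgfbr2 (65.1 ± 10.5 against 170.2 ± 16.7 FPKM) and Acvrl1 (1.75 ± 0.305 against 9.01 ± 0.953 FPKM) were higher in MLg. The receptors Tgfbr1 (26.5 ± 9.65 against 7.999 ± 2.38 FPKM) and Tgfbr3 (100.3 ± 23.2 against 37.4 ± 5.41 FPKM) were higher in NIH-3T3.

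Of 27 tested genes of the Wnt list, 8 were higher in NIH-3T3 and 13 in MLg. The ligands Wnt10a and Wnt6 were higher in MLg and Wnt9a in NIH-3T3. Wnt10a had 0.0605, 0 and 0.0557 FPKM in NIH-3T3 and 14.8, 14.1 and 9.96 FPKM in MLg, and Wnt6 0.262, 0.541 and 0.368 and 10.5, 16.1 and 12.3 FPKM. The Wnt amplifier Rspo2 was higher in MLg (0.847 ± 0.07505 against 9.06 ± 1.19 FPKM). NIH-3T3 had more of the receptor Fzd4 (49.1 ± 11.9 against 4.36 ± 1.66 FPKM) and of the antagonist Dkk2 (11.3 ± 1.43 against 3.53 ± 0.2399 FPKM). Other Fzd receptors of the list, Fzd1, Fzd2, Fzd3, Fzd6, Fzd7 and Fzd8, were called higher in MLg, as were Sfrp1 and Apcdd1. Of 11 tested genes of the Notch list, Dlk1 included, 3 were higher in NIH-3T3 and 7 in MLg. The ligand Jag1 (14.9 ± 2.16 against 5.22 ± 0.398 FPKM) and the receptor Notch1 (4.66 ± 0.824 against 1.57 ± 0.354 FPKM) were higher in NIH-3T3, and Notch3 and the ligand Dll1 (0.213 ± 0.0889 against 3.58 ± 0.635 FPKM) in MLg.

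Components of the Hedgehog pathway were detected in both lines without added ligand. Of 12 tested, 3 were higher in NIH-3T3 and 3 in MLg, 25% each way and near the 20.9% and 21.7% of all tested genes, and 5 and 4 without NIH-3T3 control replicate 2. The coreceptor Boc had 43.7, 38.7 and 36.1 FPKM in NIH-3T3 and 4.46, 3.65 and 3.88 FPKM in MLg. The transducer Smo (122 ± 32.2 against 202 ± 11.9 FPKM) and the transcription factor Gli2 (7.83 ± 1.17 against 17.3 ± 1.74 FPKM) were higher in MLg. Shh and Hhip were listed at 0 in all 6 libraries.

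Growth factors and their receptors differed in both directions, with 11 of 34 tested higher in NIH-3T3 and 13 in MLg (32.4% and 38.2%, against 20.9% and 21.7% of all tested genes). Fgf7 (68.2 ± 14.8 against 5.68 ± 1.27 FPKM) and Fgf18 (6.31 ± 1.84 against 0.448 ± 0.196 FPKM) were higher in NIH-3T3, and the lymphatic growth factor Vegfc (0.615 ± 0.261 against 27.4 ± 1.88 FPKM) in MLg. Of the PDGF receptors, Pdgfra was higher in NIH-3T3 (399 ± 77.9 against 197 ± 13.3 FPKM) and Pdgfrb in MLg (63.5 ± 6.63 against 104 ± 3.37 FPKM). Among 19 tested IGF genes 6 were higher in NIH-3T3 and 7 in MLg. The binding protein Igfbp4 had 27.7, 40.8 and 33.7 FPKM in NIH-3T3 and 509, 473 and 376 FPKM in MLg. Pappa, the protease that cleaves this binding protein, went the other way (20.3 ± 6.33 against 1.87 ± 0.468 FPKM), as did Igfbp6 (239 ± 66.6 against 48.8 ± 9.195 FPKM). Of 14 tested retinoid genes 4 were higher in NIH-3T3 and 5 in MLg (28.6% and 35.7%). The retinol dehydrogenase Rdh10 (9.504 ± 2.11 against 214 ± 17.8 FPKM) and the retinaldehyde dehydrogenase Aldh1a1 (0.306 ± 0.134 against 6.98 ± 1.08 FPKM) were higher in MLg. Cyp26b1, which breaks down retinoic acid, was higher in NIH-3T3 (3.76 ± 0.721 against 0.207 ± 0.0617 FPKM), like Crabp1. Dhrs9, another dehydrogenase of the list, was called higher in NIH-3T3 as well, against the direction of Rdh10 and Aldh1a1.

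Guidance molecules, known from growing axons, included a ligand and its receptor that were high in opposite lines. The secreted ligand Slit3 had 62.2 ± 12.4 FPKM in NIH-3T3 and 2.02 ± 0.494 FPKM in MLg, whereas Robo1, a receptor of Slit proteins, had at most 0.01 FPKM in NIH-3T3 and 6.06, 3.96 and 5.09 FPKM in MLg. Slit2 of the same list was called higher in MLg, like Robo1, so the called Slit genes lay on both sides. The netrin receptor Unc5c was near 0 in NIH-3T3 too (0.01196 ± 0.00321 against 12.2 ± 3.09 FPKM), and the ephrins Efna5 (26.5 ± 7.22 against 3.56 ± 0.364 FPKM) and Efna1 (21.6 ± 3.41 against 5.34 ± 0.784 FPKM) were higher in NIH-3T3. Of 39 tested, 11 were higher in NIH-3T3 and 19 in MLg. Of 32 tested surface and secreted markers of fibroblast subtypes, 14 were higher in NIH-3T3 and 10 in MLg. Besides Cd34, Thy1 and Scara5, NIH-3T3 had more Pi16 and Pdpn, with log2 differences of 3.22 and 4.13. Dpt, a small matrix protein, had 208, 213 and 177 FPKM in NIH-3T3 and 21.2, 2.77 and 2.33 FPKM in MLg. Of its MLg libraries replicate 1 was the high one. MLg had more of the peptidase Mme (0.0455 ± 0.0463 against 23.7 ± 5.86 FPKM).

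Chemokine and interferon-stimulated genes were more often higher in MLg. Of 30 tested chemokines and cytokines, 7 of which passed the filter in MLg alone, 17 were higher in MLg and 5 in NIH-3T3 (56.7% and 16.7%, against 21.7% and 20.9% of all tested genes). Cxcl12, a chemokine that holds blood progenitors in place, had 281, 281 and 324 FPKM in NIH-3T3 and 1536, 1764 and 2058 FPKM in MLg. The monocyte attractant Ccl2 had 25.5, 28.4 and 23.8 and 211, 179 and 164 FPKM. In contrast, Ccl5 (12.5 ± 3.201 against 1.61 ± 0.691 FPKM), the pentraxin Ptx3 (111 ± 24.4 against 6.01 ± 3.704 FPKM) and the prostaglandin E synthase Ptges (26.4 ± 2.25 against 3.05 ± 0.04599 FPKM) were higher in NIH-3T3. Of 36 tested interferon-stimulated genes, 9 of which passed the filter in MLg alone, 26 were higher in MLg and 5 in NIH-3T3 (72.2% and 13.9%), with a median log2 difference of −0.999. Irgm1, a GTPase of cell defence, had 4.41, 4.74 and 3.57 FPKM in NIH-3T3 and 25.4, 25.6 and 26.1 FPKM in MLg, and Ifit3, of the antiviral IFIT family, 0.592, 0.657 and 0.759 and 5.09, 4.97 and 4.47 FPKM. Gbp3 (log2 difference −2.82) and Oasl2 (−2.91) were higher in MLg as well, and Trim30a (2.05), Ifi44 (1.93) and Trim25 (1.21) in NIH-3T3.

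Of 24 tested genes of the MHC class I list 10 were higher in MLg and 3 in NIH-3T3. The immunoproteasome subunit Psmb10 (15.2 ± 2.91 against 53.7 ± 10.3 FPKM), the peptide trimming enzyme Erap1 (6.17 ± 0.923 against 17.3 ± 2.74 FPKM) and H2-T23 (1.46 ± 0.193 against 18.04 ± 2.87 FPKM) were higher in MLg, and H2-T10 (10.3 ± 0.942 against 4.56 ± 0.738 FPKM) in NIH-3T3. Class I genes are close copies of each other and differ between strains, so their single values are uncertain. Among 18 tested complement genes 4 were higher in NIH-3T3 and 6 in MLg. Cd55, which shields cells from complement, had 29.6 ± 7.28 against 0.0742 ± 0.102 FPKM and clusterin, Clu, 20.5 ± 2.28 against 0.572 ± 0.468 FPKM, both higher in NIH-3T3.

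Cell cycle genes were more often higher in MLg. Of 35 tested genes of mitosis and its preparation (G2/M), 29 were higher in MLg and 1 in NIH-3T3 (82.9% and 2.86%, against 21.7% and 20.9% of all tested genes), with a median log2 difference of −1.17. Plk1, a mitotic kinase, had 2.83, 2.94 and 1.72 FPKM in NIH-3T3 and 10.9, 11.02 and 9.82 FPKM in MLg, and the cyclin Ccnb1 3.24, 2.19 and 3.004 and 9.44, 9.603 and 14.2 FPKM. No library of one line reached the range of the other in either gene. Kif20a (log2 difference −1.83) and Birc5 (−1.37) followed. Top2a, the exception, was higher in NIH-3T3 (39.9 ± 9.81 against 21.6 ± 6.53 FPKM), but lost its call without NIH-3T3 control replicate 1 (adjusted p = 0.0608) or 3 (0.0666) and without MLg control replicate 1 (0.0785) or 2 (0.0575). Of 34 tested genes of DNA replication and its onset (G1/S), 17 were higher in MLg and 2 in NIH-3T3 (50% and 5.88%), with a median of −0.55, and 11 and 1 without MLg control replicate 2. E2f1, the transcription factor that drives this stage, had 13.9 ± 2.12 against 28.5 ± 3.64 FPKM and the helicase subunit Mcm5 5.87 ± 0.961 against 13.3 ± 2.38 FPKM.

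In a list of cycle inhibitors, p53 targets and regulators of G1, the phase before DNA replication, 17 of 37 tested genes were higher in MLg and 4 in NIH-3T3 (45.9% and 10.8%, against 21.7% and 20.9% of all tested genes). The list mixes brakes and drivers of the cycle. The 17 included the cyclins Ccnd1 (log2 difference −0.48) and Ccnd2 (−0.66) and the Myc family member Mycl (−1.19), and the 4 included the cyclin Ccnd3 (0.72) and Mycn. Ccnd1 lost its call without MLg control replicate 1 (adjusted p = 0.0734), Ccnd2 without MLg control replicate 1 (0.071) or 3 (0.0817), and Ccnd3 without NIH-3T3 control replicate 3 (0.0526) or MLg control replicate 3 (0.0586). The 4 became 7 without NIH-3T3 control replicate 2, 7 with length and GC content corrected, and 2 without NIH-3T3 control replicate 3. Pmaip1, a death-promoting p53 target, had 0.111 ± 0.0926 against 4.61 ± 0.769 FPKM and Gadd45g 2.78 ± 0.3903 against 22.2 ± 4.03 FPKM, both higher in MLg. Cdkn1a, the best known p53 target, was slightly higher in NIH-3T3 (24.1 ± 1.503 against 17.3 ± 0.762 FPKM, log2 difference 0.47), and lost its call without NIH-3T3 control replicate 3 (adjusted p = 0.0535). Trp53 itself was not called (88.9 ± 5.86 against 97.5 ± 7.39 FPKM). Mycn had 1.79 ± 0.2003 against 0.007603 ± 0.0132 FPKM.

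Genes of ribosome assembly, the primary cilium, cholesterol synthesis and glycolysis were called in a share of 3.57%, 26.8%, 37.5% and 35.5%, against 42.6% of all tested genes. These shares pool both directions, and the directions were uneven in the last 3 lists. Of 28 tested genes of ribosome assembly, 1 was called, Rrp9 (log2 difference −0.7003), and it lost its call without MLg control replicate 1 (adjusted p = 0.0532). The list had 2 genes higher in NIH-3T3 and 1 in MLg without NIH-3T3 control replicate 1, 1 and 2 without NIH-3T3 control replicate 2, none and 2 without MLg control replicate 3, 2 and 4 with all 12 libraries in the fit, and 3 and 4 with length and GC content corrected. Of 41 tested primary cilium genes, 9 were higher in NIH-3T3 and 2 in MLg, and 14 and 7 with length and GC content corrected. Bbs2 (8.37 ± 1.03 against 3.496 ± 0.131 FPKM) and Ift57 (12.8 ± 1.82 against 6.15 ± 0.707 FPKM), which carry cargo to and along the cilium, were higher in NIH-3T3. Of 32 tested genes of cholesterol and fatty acid synthesis, 11 were higher in NIH-3T3 and 1 in MLg (34.4% and 3.12%). The 11 became 7 without NIH-3T3 control replicate 1, 6 without NIH-3T3 control replicate 3 and 4 without MLg control replicate 1. Cyp51, a demethylase of the cholesterol pathway, had 73.4, 74.8 and 88.8 FPKM in NIH-3T3 and 10.1, 15.8 and 17.6 FPKM in MLg, and the desaturase Scd1 55.8 ± 12.6 against 20.5 ± 2.44 FPKM. Of 31 tested glycolysis and hypoxia genes, 3 were higher in NIH-3T3 and 8 in MLg (9.68% and 25.8%), and 8 and 11 with the length and GC correction. The glucose transporter Slc2a1 was higher in NIH-3T3 (66.4 ± 3.32 against 32.1 ± 7.87 FPKM) and hexokinase Hk2 in MLg (2.43 ± 0.341 against 7.02 ± 1.06 FPKM).

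Of 24 tested genes of the secretory load on the endoplasmic reticulum, 11 were higher in MLg and 4 in NIH-3T3. The 4 became 2 without NIH-3T3 control replicate 2, MLg control replicate 1 or MLg control replicate 3, and 1 without NIH-3T3 control replicate 3. Hyou1 (21.9 ± 2.26 against 55.6 ± 3.44 FPKM) and Hsp90b1 (254 ± 9.52 against 522 ± 73.5 FPKM) were higher in MLg, the stress factor Atf3 in NIH-3T3 (1.404 ± 0.401 against 0.205 ± 0.0906 FPKM). Of 32 tested genes of metal and oxidant defence, 7 were higher in NIH-3T3 and 15 in MLg. Gpx7, a peroxidase of the endoplasmic reticulum, had 20.7, 28.4 and 22.4 FPKM in NIH-3T3 and 0, 0 and 0.0509 FPKM in MLg. The membrane-bound glutathione transferases Mgst1 (20.4 ± 3.74 against 116 ± 12.4 FPKM) and Mgst3 (96.7 ± 21.3 against 21.6 ± 2.76 FPKM) differed in opposite directions.

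Regulators of neighbouring mesenchymal lineages also differed. Of 17 tested adipogenic genes, 7 were higher in NIH-3T3 and 4 in MLg. The preadipocyte factors Ebf1 and Ebf3 had 76.6 ± 19.2 against 4.47 ± 1.04 and 32.99 ± 6.298 against 0.0132 ± 0.0127 FPKM, higher in NIH-3T3, while Cebpa, a late adipogenic factor, was near 0 in NIH-3T3 and in MLg had 5.41, 5.902 and 4.89 FPKM. Adipoq and Plin1, genes of mature fat cells, were listed at 0 in all 6 libraries. Of 12 tested bone and cartilage genes, 4 were higher in NIH-3T3 and 7 in MLg. Sox9, the chondrogenic factor, had 66.2, 38.3 and 45.1 FPKM in NIH-3T3 and 9.45, 6.17 and 5.89 FPKM in MLg, while Bglap and Ibsp, genes of mature bone cells, were listed at 0. The growth-related Prl2c2 and Prl2c3 genes (proliferins), which are near-identical copies with uncertain single values, were not called, although Prl2c3 was called higher in NIH-3T3 without NIH-3T3 control replicate 2 (adjusted p = 0.00695).

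**Figure D5:**
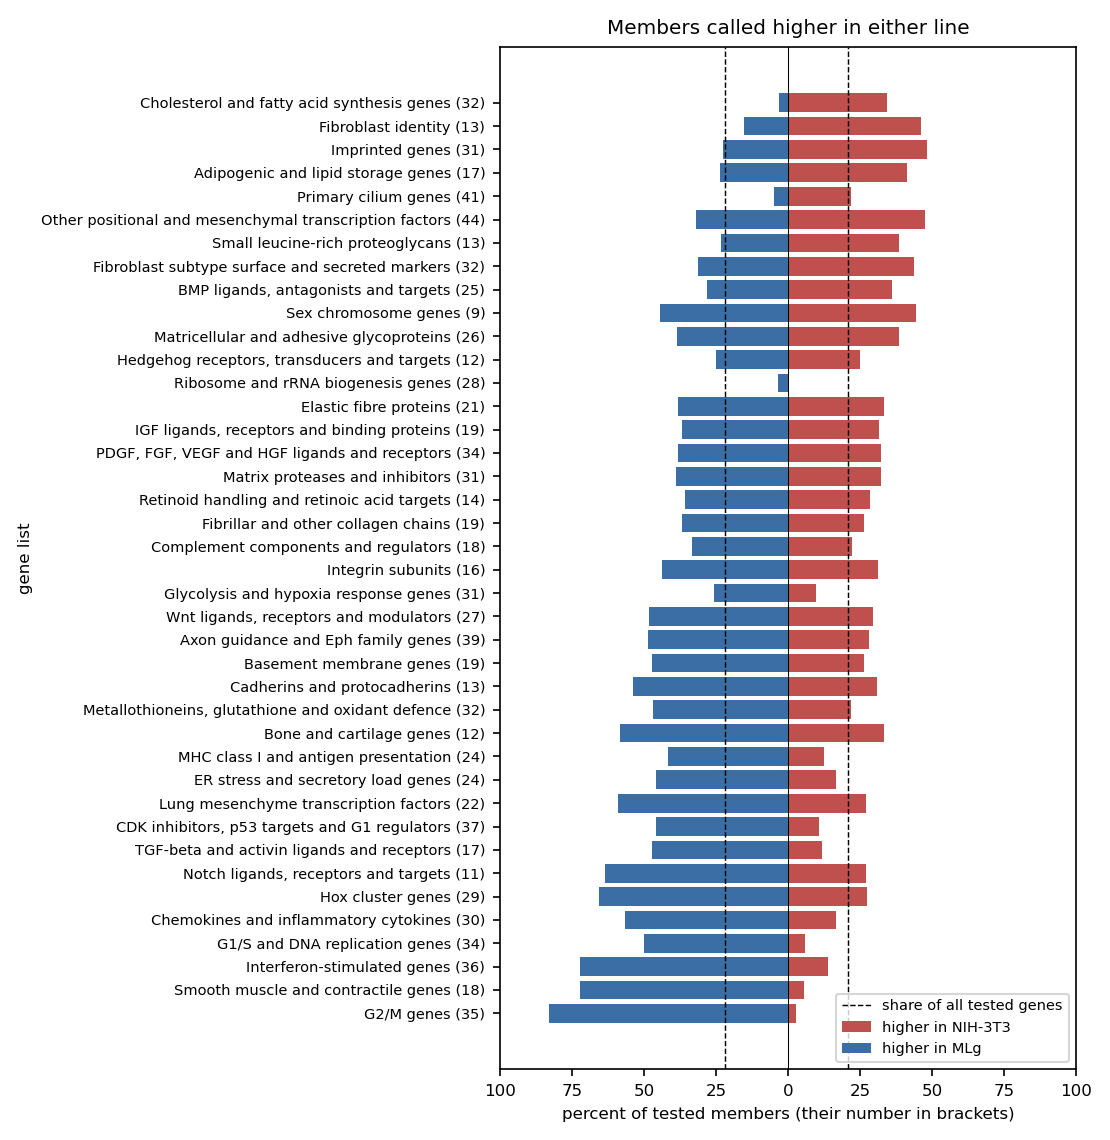
Share of the tested members of each gene list with at least 8 tested members that were called higher in NIH-3T3 (right) or in MLg (left), in percent. Dashed lines mark the shares over all 11991 tested genes, 20.9% and 21.7%. G2/M, contractile and interferon-stimulated genes extend far to the MLg side. Cholesterol synthesis, fibroblast identity and imprinted genes extend further to the NIH-3T3 side than to the MLg side. Other patterning factors pass both dashed lines, while the ribosome list lies under both.

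The 6 libraries with SHHN gave a reading of the line difference in other samples. In them 2943 of the 11991 genes were higher in NIH-3T3 (24.5%) and 3448 in MLg (28.8%). Of the 2501 genes higher in NIH-3T3 controls, 1766 (70.6%) were called the same way with SHHN and 50 (2.0%) the opposite way. Of the 2603 higher in MLg controls, 1858 (71.4%) and 82 (3.15%) were. The differences correlated across genes with a Pearson r of 0.84 and a Spearman rho of 0.73, and genes are not independent replicates. Of 777 genes called with at least a 4-fold difference in controls, 763 kept their sign and 500 were again at least 4-fold apart. Dlk1 differed by 10.69 without and 10.95 with SHHN, Plac8 by −8.08 and −8.09, Hoxd8 by 5.75 and 6.01, and Hoxc8 by −5.32 and −5.15. Rdh10 and Ebf1 differed by −4.44 and 3.94 without SHHN and by −1.33 and 0.97 with it, and the G2/M genes Plk1 and Ccnb1 by −1.91 and −1.797 without and −0.74 and −0.87 with SHHN. By the interaction in a limma fit of all 12 libraries these last 4 differences were smaller with SHHN, with an adjusted p of 1.57e-06 for Rdh10, 2.71e-05 for Ebf1, 0.00353 for Plk1 and 0.0297 for Ccnb1. These 4 genes were named for their difference in the controls, which also enter the interaction. Over all tested genes the interaction was called for 1556 (13%).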

How the data were processed

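RNA-seq of 12 libraries (4 groups of 3) was deposited, and the 6 control libraries were compared here. Values are FPKM per gene made by the authors, with TopHat2 2.0.12, Cufflinks 2.2.1, bcl2fastq and the mm10 build, per the submitters' processing notes. The gene annotation they used is not given in the sources used here. Low values showed no whole-read steps, so no counts were recovered, depth is unknown and no count test was run.

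Genes that reached 0.5 FPKM in 3 or more of the 6 control libraries were tested on log2(FPKM + 0.5) with limma 3.58.1 (variance trend, R 4.3.3), two-sided, with Benjamini-Hochberg adjustment over the 11991 tested genes and a threshold of 0.05. The SHHN libraries were fitted in the same way, and the interaction in a fit of all 12. The fit was tested on simulated data. Gene lists, chromosomes and windows of 10 genes are described by counts and medians, with no test. The members and lists were chosen with earlier results of these data known.

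Named genes were the 15 highest and 15 lowest differences among called genes with a mean of at least 10 FPKM in the higher line and libraries that did not overlap, the markers, every tested Hox gene, the 4 members of each other list with the smallest p and up to 3 that went against its direction, the genes of the highest and lowest windows, and uncalled members with at least 100 FPKM. Outside this rule, En1, Irx1, Pax9, Lhx8, Foxd1, Scx, Tbx2, H19, Mest, Plagl1, Grb10, Impact, Peg3, Snrpn, Kdm5c, Uty, Id2, Smad6, Smad7, Wnt9a, Fzd1, Fzd2, Fzd3, Fzd6, Fzd7, Fzd8, Sfrp1, Apcdd1, Slit2, Ctgf, Dpt, Pi16, Pdpn, Trp53, Ccnd1, Ccnd2, Ccnd3, Mycl and Mtap were named after their values were seen. Some genes chosen this way are not reported here. The alternatives were other pseudocounts, filters, scalings and variance settings, a fold minimum, a length and GC correction, the replicate number as a block, all 12 libraries in the fit, and each library left out. Positions are from GENCODE M21 on GRCm38.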

Additional observations from a re-analysis of the deposited data

Results flagged for a closer look

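Of the 30 genes with the largest line differences, 16 had a line difference that changed with SHHN by the limma interaction over all 12 libraries, where 13% of all tested genes did. These genes were chosen as the most extreme in the control libraries, and the interaction uses the same control values, so the choice itself favours a smaller difference with SHHN. It was smaller with SHHN for 14 of them and larger for 2. Values are the change of the log2 difference, NIH-3T3 minus MLg, with SHHN against without, and p-values are adjusted over all tested genes.

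Among the genes higher in NIH-3T3, the difference was smaller for Meg3 (−1.224, adjusted p = 0.000201), Agtr2 (−3.114, adjusted p = 1.29e-05), Sfrp2 (−4.199, adjusted p = 1.61e-06), Emb (−2.929, adjusted p = 3.88e-06), Mirg (−0.9673, adjusted p = 0.0267), Lpl (−1.96, adjusted p = 0.00856) and Scara5 (−2.805, adjusted p = 3.19e-05). It was larger for Thy1 (0.7304, adjusted p = 0.00993). Among the genes higher in MLg, it was smaller for Grem1 (2.327, a marker and so without a p-value), Htra1 (1.739, adjusted p = 0.000439), Il1rn (2.921, adjusted p = 5.27e-07), Sgce (0.5404, adjusted p = 0.0487), Serping1 (2.787, adjusted p = 1.57e-06), Hoxb9 (0.7511, adjusted p = 0.0136) and Pde1a (1.16, adjusted p = 0.0228). It was larger for Loxl2 (−0.9174, adjusted p = 0.00353). Sfrp2 and Agtr2 were still higher in NIH-3T3 with SHHN, by 4.78 and 6.37 on the log2 scale, and Il1rn and Serping1 were still higher in MLg, with log2 differences of −4.11 and −3.71.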

How the results depend on the processing

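The counts of genes higher in NIH-3T3, higher in MLg and called the same way in the SHHN libraries stayed within 1.5 times the reported values under every alternative run except the fold minimum. With a 2-fold change required, 490 and 621 genes were called higher in NIH-3T3 and in MLg, and 731 the same way with and without SHHN. Leaving out 1 library at a time gave 1943 to 2830 genes higher in NIH-3T3 and 2045 to 2732 higher in MLg. Length and GC correction gave 3273 and 3349, and 3420 and 3479 with the replicate block. With the replicate block alone the counts were 3076 and 3198, and 4232 called the same way. Deviations of same-numbered libraries of the lines correlated at −0.080, 0.47 and 0.42, and those of differently numbered libraries at −0.52 to 0.29. The main fit had no block, and whether equal numbers mark pairs was not tested. The block also called Hoxa5 (adjusted p = 0.0192) and Slc25a47 (0.0124), ended the call of Hoxa4 (0.0504) and moved the retinoid genes higher in NIH-3T3 from 4 to 7. Counts of the glycolysis, primary cilium and ribosome assembly lists moved by more than 1.5 times with the block too, in at least 1 direction. Of 309 named genes 290 were called. Under the alternatives without the fold minimum 272 of these stayed called wherever tested, 18 lost their call under at least 1, and none reversed. The filter of 1 FPKM did not test 17 of the 309. These limits rest on 3 libraries a line of unknown depth, and on 1 line for each origin.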
